A study of Homo sapiens with 9 samples.

Results

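The genes that encode the proteins of the cytosolic ribosome were examined in HAL-01, a line of B-ALL (acute lymphoblastic leukemia of the B lineage) that carries the fusion transcription factor TCF3::HLF, after CRISPR targeting of the HLF motif in a MEF2C enhancer. Members were chosen by name: protein-coding genes of GENCODE release 44 whose symbol is RPL or RPS followed by a number, RPLP0 to RPLP2, or RPSA, without the S6 kinases, RPS27L, RPS19BP1, RPS4Y genes and readthrough genes. This gave 84 of 62700 annotated genes. Of these, 31 encode proteins of the small (40S) subunit, 43 encode proteins of the large (60S) subunit, 3 encode the P proteins of the stalk, and 7 are paralogues of a large subunit gene (RPL3L, RPL7L1, RPL10L, RPL22L1, RPL26L1, RPL36AL and RPL39L). The rule used no measured value.

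All cells stably carried Cas9GFP and were collected on day 13. Both sgRNA_96 and sgRNA_97 have the genotype label MEF2C Enhancer KO, and the scrambled guide SCR1 (Ctr_SCR) was the control, with 3 libraries per guide that carry the numbers 1, 3 and 4. In the comparison of enhancer KO with SCR1 the 6 libraries of both guides formed 1 group against 3. The cells are the progeny of a single line, nothing in the labels says that replicates were separate cultures, and p-values then measure the spread between these libraries only. Libraries are bulk, so a loss of some cells and less RNA per cell cannot be told apart.

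Totals lay between 15212462 and 29777361 estimated counts per library, and SCR1 replicate 1 was the deepest. MEF2C itself was at 560, 559 and 536 CPM (counts scaled to a library total of 1000000) in SCR1 replicates 1, 3 and 4, and at 495, 498 and 510 with sgRNA_96. With sgRNA_97 it was at 553, 505 and 495. Of the KO libraries, 5 of 6 lay below all SCR1 libraries and sgRNA_97 replicate 1 lay within their range (log2 fold change -0.12, edgeR adjusted p = 0.062, which misses the threshold of 0.05). For MEF2C alone a two-sided exact permutation test on the mean of log2 CPM gave p = 0.0238, not adjusted for other genes. All 11 B-lineage markers passed the filter on low counts, whereas no erythroid and no stromal or epithelial marker did. Of 5 T cell markers 1 passed, TRAC (-0.24). Of 5 myeloid markers 3 passed. Of these, MPO (1.08) and ITGAM (0.74) rose, and the remaining marker went the other way (-0.21) and was not called. The summed level of the myeloid list was 16.0 to 19.1 TPM in SCR1 and 15.6 to 20.8 TPM in KO. Whether these few transcripts have a part in the results below was not tested.

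A cytosolic ribosome holds a single copy of nearly every ribosomal protein. Of the P proteins, which recruit elongation factors, RPLP1 and RPLP2 are present in more than a single copy. The genes are among the most highly transcribed of a growing cell. Their mRNAs share a start signal, the 5′ terminal oligopyrimidine (TOP) tract, a C at the first base followed by an unbroken run of C and T, through which the kinase mTORC1 and the protein LARP1 set how much of each mRNA is translated. In blood, loss of a single copy of some of these genes causes Diamond-Blackfan anemia or the anemia of the 5q- syndrome, and unassembled RPL5 and RPL11 bind MDM2.

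To show the start signal that the family shares, the 15 bases before and the 15 bases from the listed start of 8 members named below were taken from RefSeq (GRCh38.p14). Capitals mark a TOP tract, here a C at the start followed by at least 4 bases that are each C or T. Start sites are at chr3:170870195 (RPL22L1, minus strand), chrX:119791630 (RPL39, minus), chr4:39458922 (RPL9, minus), chr12:56041918 (RPS26, plus), chr14:49620626 (RPL36AL, minus), chr10:78033863 (RPS24, plus), chr1:6199595 (RPL22, minus) and chrX:101391011 (RPL36A, plus).
RPL22L1: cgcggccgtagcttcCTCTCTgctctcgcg
RPL39: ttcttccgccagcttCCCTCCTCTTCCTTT
RPL9: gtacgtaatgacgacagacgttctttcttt
RPS26: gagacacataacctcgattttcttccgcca
RPL36AL: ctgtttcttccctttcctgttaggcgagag
RPS24: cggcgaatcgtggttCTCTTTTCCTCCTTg
RPL22: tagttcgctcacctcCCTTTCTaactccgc
RPL36A: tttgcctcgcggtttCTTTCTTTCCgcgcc
The tract runs to the end of the window in RPL39 and covers 14 bases in RPS24. It is absent at the listed starts of RPL9, RPS26 and RPL36AL.

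RefSeq sequences of 300 bases (250 before the start and 50 from it) were at hand for 83 starts of 67 members and for 35116 starts in all. A TOP tract stood exactly at the listed start in 47 of the 83 member starts (56.6%) and in 4.07% of all starts. Within 3 bases of the start it was found in 65.1% of member starts and 13% of all. Searched on both strands, the ETS-type motif CCGGAAG was present in 32.5% of member starts and 10.3% of all, the SP1-type motif GGGCGG in 54.2% and 45.0%, and the YY1-type motif AAGATGGC in 8.43% and 2.89%. The letters TATAAA were present in 8.43% and 11.5%, and the E box CACGTG in 6.02% and 7.26%. The HLF-type sequence TTACGTAA occurred in 1 member start, that of RPS3, and in 0.125% of all starts, and TTATGTAA in 0 member starts and in 0.886% of all. These matches are descriptions of the letters in the windows and not sites shown to be bound.

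Ribosomal protein mRNAs took up a large part of the transcriptome in these cells. Levels are given in TPM, an abundance per transcript length that sums to 1000000 in every library. The 84 members together held 27.1, 26.7 and 27.0% of TPM in SCR1 replicates 1, 3 and 4. They held 27.1, 28.7 and 27.3% with sgRNA_96 and 27.8, 28.7 and 28.1% with sgRNA_97. Means were 26.9 ± 0.228% (SD, n = 3) in SCR1 and 27.9 ± 0.660% (SD, n = 6) in KO, and the lowest KO library, sgRNA_96 replicate 1 at 27.138%, was just above the highest SCR1 library at 27.131%. As a share of counts, without division by length, the same libraries overlapped, at 10.1 to 10.4% in SCR1 and 10.1 to 10.9% in KO. The small subunit genes made up 11.4 ± 0.138% of TPM in SCR1 and 11.9 ± 0.339% in KO, and the large subunit genes 14.3 ± 0.0812% and 14.8 ± 0.327%. The libraries of both groups overlapped for the small subunit, at 11.3 to 11.5% in SCR1 and 11.4 to 12.3% in KO, and did not overlap for the large subunit, at 14.2 to 14.36% and 14.41 to 15.2%.

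Single members spanned a wide range of levels. Among the highest were RPS18 at 7341 TPM on average over the 9 libraries and RPL37A at 6378 TPM, and the median of the tested members was 3282 TPM. RPS18 was at 7112 ± 145 TPM in SCR1 (SD, n = 3) and RPL37A at 6326 ± 224 TPM, further apart than either SD. Among the genes of the 2 subunits proper, RPS26 was the lowest, at 452 ± 31.4 TPM in SCR1, followed by RPL22 at 941 ± 20.6 and RPL36 at 1041 ± 54.5. The paralogues were lower still. RPL39L had 19.9 TPM on average, RPL26L1 33.3, RPL7L1 87.4, RPL22L1 135 and RPL36AL 296. RPL10L and RPL3L, which are known from testis and from muscle, had 0 to 3 and 0 to 1 estimated counts in any library and did not pass the filter on low counts, so 82 members were tested.

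Of the 82 tested members 6 passed the test in KO against SCR1 (7.32%), where 20.7% of all 14436 tested genes did. RPL22L1, RPL39 and RPL9 were among those that rose, and RPS26 and RPL36AL fell, 4 and 2 members where 10.1 and 10.6% of all genes were called higher and lower. This count depends on the treatment of gene length, with 30 members higher and 1 lower once a length trend was taken out of each library, and 41 and 3 with GC and length trends and a replicate block, where 18.5 and 25.9% of all genes were called. The median log2 fold change of the members was 0.03, beside 0.00 over all tested genes, with 51 members above 0 and 31 below it. The median size of the change regardless of sign was 0.06 for the members and 0.15 for all genes. Their errors were small, with a median SE of 0.05 on the log2 scale against 0.08 for all genes. For 74 of the 82 members the 95% confidence interval of the change lay within 1.2-fold in either direction, and for 26 within 1.1-fold. RPL26L1 was the single member whose KO and SCR1 libraries did not overlap, where 20.3% of all genes did not. The count of called members rested on single libraries: it was 1 without SCR1 replicate 1 and 1 without SCR1 replicate 4, where 10.2 and 12.3% of all genes were called, and 3 without SCR1 replicate 3, where 16.3% were. Without sgRNA_96 replicate 1 it was 16 (12 higher, 4 lower), or 19.5% of the members, where 24.7% of all genes were called.

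**Figure D1:**
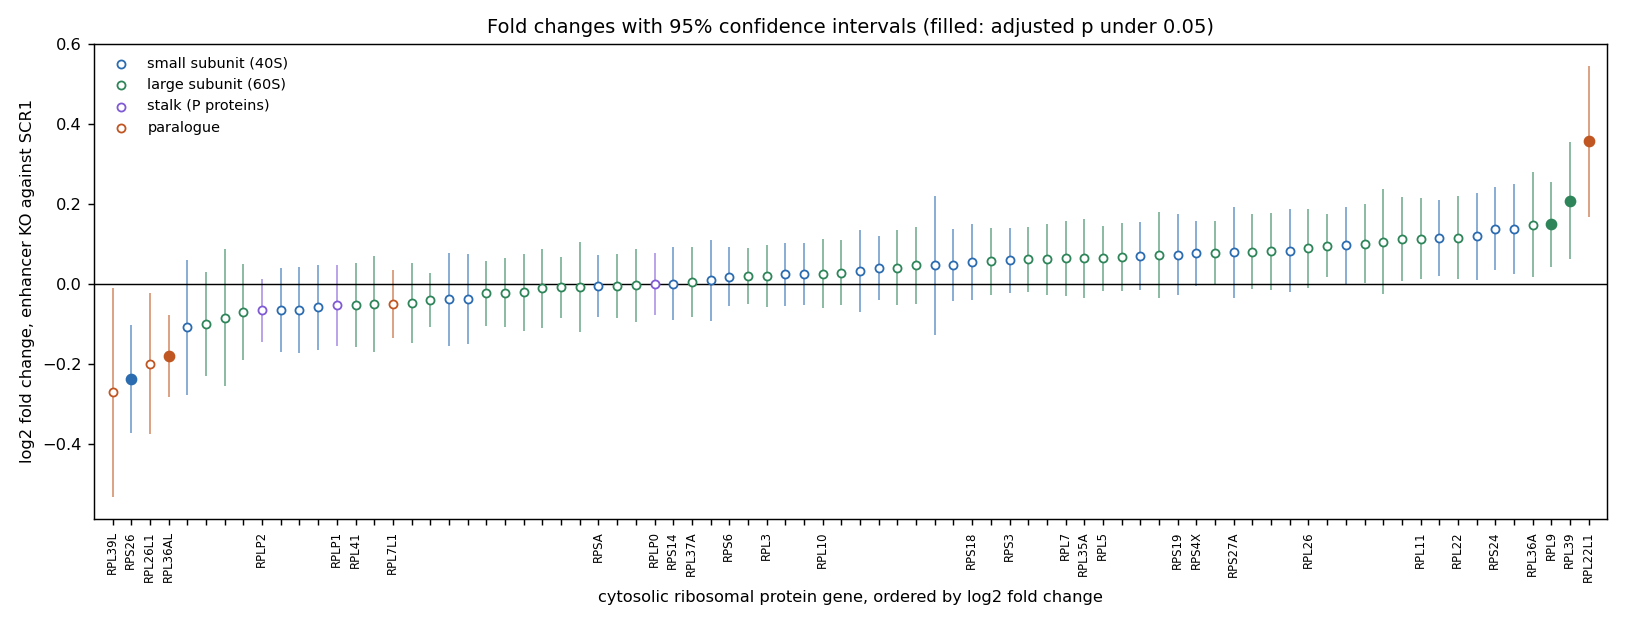
Log2 fold change of 80 of the 82 tested members in enhancer KO (n = 6) against SCR1 (n = 3), ordered by size, with 95% confidence intervals from the edgeR fit as bars, colours for the subunit and filled points for an adjusted p under 0.05, and names under the members with values in the text. All points but RPL22L1 (0.36), RPL39 (0.21), RPL39L (-0.27) and RPS26 (-0.24) lie within 0.20 of 0.

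The largest rise was that of RPL22L1, a paralogue of the 60S protein RPL22 (ENSG00000163584.18, chromosome 3, 170864875 to 170870208, minus strand). It was at 30.3, 33.4 and 39.3 CPM in SCR1 replicates 1, 3 and 4, at 35.5, 46.1 and 45.4 with sgRNA_96 and at 46.3, 45.8 and 43.8 with sgRNA_97. All KO libraries except sgRNA_96 replicate 1 were above SCR1. The log2 fold change was 0.36 ± 0.09 (SE), with an edgeR adjusted p of 0.0102.

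RPL39, one of the smallest proteins of the large subunit, lies at the exit of the tunnel for the growing chain. It was at 893, 886 and 925 CPM in SCR1, at 871, 1162 and 1000.1 with sgRNA_96 and at 1051, 1157 and 1009.5 with sgRNA_97. Here sgRNA_96 replicate 1 was below every SCR1 library and the other 5 KO libraries were above them. The change was 0.21 ± 0.07 (edgeR adjusted p = 0.0419).

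RPL9, a 60S protein, was at 1068, 1103 and 1130 CPM in SCR1, at 1101, 1275 and 1167 with sgRNA_96 and at 1248, 1324 and 1208 with sgRNA_97 (0.15 ± 0.05, edgeR adjusted p = 0.0435). Here too sgRNA_96 replicate 1 was the library within the SCR1 range.

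RPS26, a 40S protein at the mRNA exit site and a gene of Diamond-Blackfan anemia, showed the largest fall of a called member. It was at 179, 151 and 170 CPM in SCR1 replicates 1, 3 and 4, at 161, 142 and 142 with sgRNA_96 and at 139, 128 and 138 with sgRNA_97. All KO libraries but sgRNA_96 replicate 1 were below SCR1 (log2 fold change -0.24 ± 0.06, edgeR adjusted p = 0.0148). RPL36AL, a paralogue of RPL36A on chromosome 14, was at 128, 120 and 128 CPM in SCR1, at 121, 108 and 109 with sgRNA_96 and at 112, 107 and 108 with sgRNA_97. It fell by 0.18 ± 0.05 on the log2 scale (edgeR adjusted p = 0.0147), with 5 of 6 KO libraries below SCR1. Both of these genes start without a TOP tract at the listed site, as does RPL9, which rose. Of the first 15 bases, 11 are C or T in RPS26 and in RPL9, and 6 in RPL36AL. Where transcription starts in these cells was not measured.

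In all of these 5 members sgRNA_96 replicate 1 was the KO library that did not share the direction of the other 5 relative to the SCR1 range: it lay within that range, except for RPL39, where it lay on the opposite side. Of 21 alternative settings, RPL22L1 and RPL36AL passed in 18, RPS26 in 17, RPL39 in 13 and RPL9 in 11. An exact permutation test (two-sided, on the mean of log2 CPM) has 84 arrangements and a smallest possible p of 0.0119. In this exact test these 5 members had p between 0.0238 and 0.0833. That test gave the higher values for RPL39 (0.0833) and RPL9 (0.0595).

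**Figure D2:**
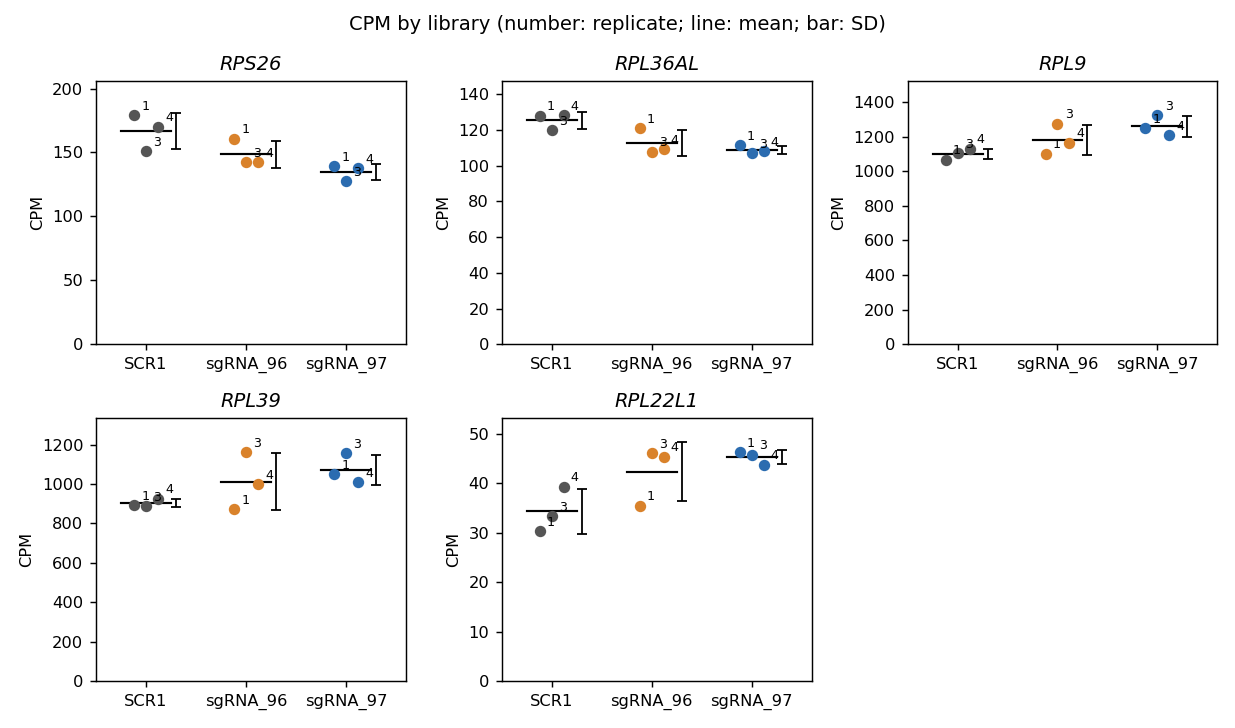
CPM of RPL22L1, RPL39, RPL9, RPS26 and RPL36AL in each library, from 0, with the replicate number beside each point, the mean of 3 libraries as a line and the SD as a bar. In all 5 panels the sgRNA_96 library numbered 1 lies closest to, or within, the SCR1 libraries.

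With the guides taken apart, no member was called for sgRNA_96 and 6 were called for sgRNA_97. For sgRNA_96 against SCR1 0 of 82 members passed, with the smallest adjusted p at 0.0657 (edgeR), where 11.2% of all genes passed. At an unadjusted p under 0.05 were 7 members (8.54%) and 26.7% of all genes. DESeq2 called 2 members for this guide, where it called 13.3% of all genes. For sgRNA_97 against SCR1 6 of 82 members (7.32%) passed, where 15.1% of all genes did. These were RPL22L1 (0.40), RPL39 (0.25), RPS3A (0.20) and RPL9 (0.20), which rose, and RPS26 (-0.31) and RPL36AL (-0.20), which fell, and 5 of them are those called with both guides pooled. RPS3A, a 40S protein, was at 2339, 2391 and 2385 CPM in SCR1 and at 2766, 2797 and 2593 CPM with sgRNA_97. The 2 guides were compared with the same SCR1 libraries. Tested directly, sgRNA_97 against sgRNA_96, 0 members passed, where 3 genes or 0.0208% of all genes did. In that comparison 3 members (3.66%) and 3.48% of all genes had an unadjusted p under 0.05. DESeq2 also called 0 members there, and 0.0554% of all genes. The 95% confidence intervals of this difference stayed between -0.31 and 0.38 on the log2 scale for every tested member. The members' median log2 fold change was 0.01 for sgRNA_96 and 0.05 for sgRNA_97, with 47 and 56 of 82 above 0.

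Members known for single-gene disease or for roles outside the ribosome mostly kept close to their SCR1 level. RPL5 and RPL11, which with 5S RNA bind MDM2, were at 1639 ± 11.6 and 1444 ± 97.7 CPM in SCR1 and at 1714 ± 69.0 and 1563 ± 74.5 CPM in KO (SD, n = 3 and 6). Their log2 fold changes were 0.07 (95% interval -0.02 to 0.15) and 0.11 (0.01 to 0.21), and neither passed the adjusted test. Of the other Diamond-Blackfan anemia genes on the panel, RPS19 had a log2 fold change of 0.07, RPL35A of 0.06 and RPS24 of 0.14, with edgeR adjusted p of 0.307, 0.357 and 0.056. RPS14, the gene of the 5q- syndrome, was at 1197 ± 48.3 CPM in SCR1 and 1198 ± 54.5 CPM in KO, a difference of 0.00 (95% interval -0.09 to 0.09). RPL10 and RPL22, which are mutated in T cell leukemia, had 0.03 and 0.12, with adjusted p of 0.695 and 0.107. Of 21 alternative settings RPS24 passed in 7, RPS19 and RPL22 in 3, RPL5 and RPL11 in 2 and RPL10 in 1. RPL35A and RPS14 passed in 0.

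Among further small subunit members, RPSA (the laminin receptor precursor) had a log2 fold change of 0.00, RPS6 (the substrate of the S6 kinases) 0.02, RPS3 (which also takes part in DNA repair) 0.06, RPS27A (a fusion with ubiquitin) 0.08, RPS4X 0.08 and RPS18 0.06. Of the large subunit, RPL3, which lies near the peptidyl transferase centre, had 0.02, RPL37A 0.01 and RPL41, the shortest protein of the family, -0.05. None of these passed, with adjusted p from 0.173 to 0.942. Under the 21 alternative settings RPS3 and RPS4X passed in 2, and RPS6, RPS27A, RPS18 and RPL3 in 1. RPSA, RPL37A and RPL41 passed in 0. The stalk genes RPLP0, RPLP1 and RPLP2 had 0.00, -0.05 and -0.07. RPLP2 was below all SCR1 libraries in 5 of 6 KO libraries, at 661 to 709 CPM against 715 ± 26.4, with an adjusted p of 0.240. By subunit, the median log2 fold change was 0.04 over the 31 small subunit genes (range -0.24 to 0.15), 0.05 over the 43 large subunit genes (-0.10 to 0.21) and -0.05 over the 3 stalk genes. Of the small subunit genes 22 were above 0 and 9 below, and of the large subunit genes 28 and 15.

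The 5 tested paralogues were set beside their parent genes, and the difference within a pair was not tested. RPL22L1 amounted to 12.1 ± 1.85% of the TPM of RPL22 in SCR1 and 14.1 ± 1.2% in KO, with overlapping libraries (10.1 to 13.7% and 12.0 to 15.3%). RPL36AL amounted to 12.2 ± 0.651% of RPL36A in SCR1 (11.6 to 12.9%) and 9.83 ± 1.17% in KO (8.35 to 11.3%), so the groups did not overlap. RPL36A itself had a log2 fold change of 0.15 (adjusted p = 0.103). A readthrough gene on the same strand, RPL36A-HNRNPH2, was given counts that amount to 25.9% of those of RPL36A, so this value rests on how reads were divided. RPL26L1 was at 0.858 ± 0.0193% of RPL26 in SCR1 and 0.697 ± 0.0450% in KO, again without overlap (0.841 to 0.879% and 0.644 to 0.752%). Its own counts were 15.3, 14.9 and 15.4 CPM in SCR1, 11.7, 13.6 and 13.6 with sgRNA_96 and 12.6, 13.7 and 14.3 with sgRNA_97. The log2 fold change of RPL26L1 was -0.20, with an edgeR adjusted p of 0.104, and that of RPL26 was 0.09. RPL39L was at 0.425 ± 0.0419% of RPL39 in SCR1 and 0.306 ± 0.0412% in KO, with 9.68 ± 1.06 and 7.98 ± 1.02 CPM (log2 fold change -0.27, adjusted p = 0.136). RPL7L1, a nucleolar paralogue with a role in ribosome assembly, was at 2.43 ± 0.207% and 2.27 ± 0.106% of RPL7, with log2 fold changes of -0.05 for RPL7L1 and 0.06 for RPL7. RPSA2, a near-identical relative of RPSA that the rule does not include, had a log2 fold change of 0.02 and reads that cannot be told firmly from those of RPSA. Of the 5 tested paralogues 1 was called higher and 1 lower, where 10.1 and 10.6% of all tested genes were. The median of the 5 was -0.18, and counts this small are a description only.

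Fold changes of the members went with the GC content of their mRNAs. Over the 82 tested members Spearman's rho between log2 fold change and GC content was -0.55, and over the 77 without the paralogues it was -0.65, beside -0.21 over all 14436 genes. These are correlations across genes, which are not independent and come from the same 9 libraries. The 41 members of lower GC content had a median log2 fold change of 0.07 and the 41 of higher GC content a median of 0.00. Of the 4 members that rose, RPL22L1, RPL39 and RPL9 belong to the lower part. In single libraries the median of the low-GC members minus that of the high-GC members was -0.05, 0.04 and 0.01 on the log2 scale in SCR1 replicates 1, 3 and 4. It was -0.04, 0.09 and 0.12 with sgRNA_96 and 0.12, 0.14 and 0.02 with sgRNA_97, so that the libraries of the groups overlapped. When a trend in GC content was taken out in each library, rho was -0.26 over the members and -0.01 over all genes. In that setting 6 members (7.32%) were called (4 higher, 2 lower), where 25.2% of all genes were. RPS19 was called there in the place of RPL9. The part of GC content in single changes was not tested beyond this.

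**Figure D3:**
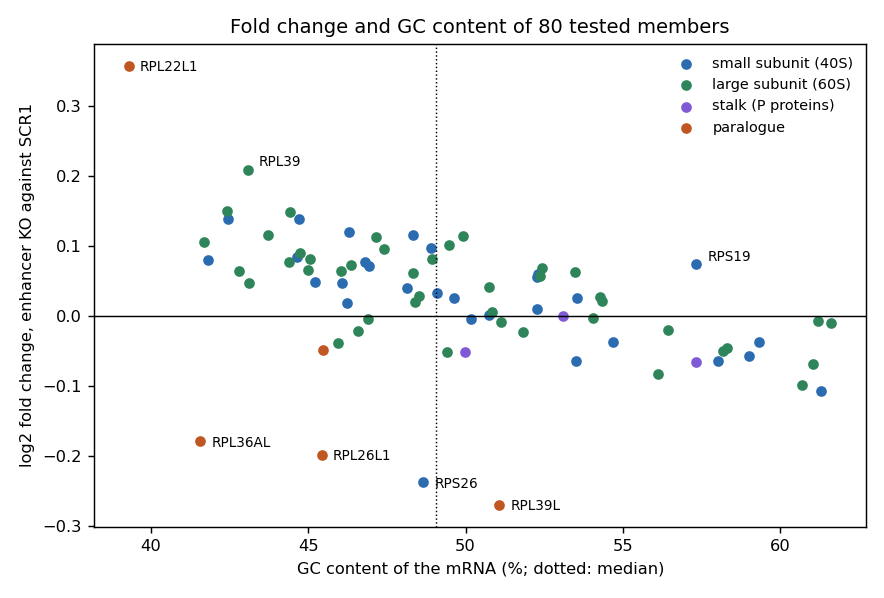
Log2 fold change in enhancer KO against SCR1 (vertical axis) and GC content of the mRNA in percent (horizontal axis) for 80 of the 82 tested members, coloured by subunit. Points fall from left to right (rho -0.55 over all 82), with RPL36AL, RPL26L1, RPS26 and RPL39L below the rest.

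The members are short, with a median mRNA length of 679 bases against 2640 bases over all tested genes, and the count of calls depends on how length is treated. Other tested genes shorter than 1000 bases numbered 1478, had a median log2 fold change of -0.06, and were called higher in 3.04% and lower in 13%. When a trend in length was taken out in each library, 30 members were called higher and 1 lower, where 8.32% of all genes were called higher and 10.2% lower. The members' median was then 0.09 and that of all genes -0.01.

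Of 639 tested member transcripts 2 were called in KO against SCR1 (0.313%), a smaller share than the 0.633% of all 54988 tested transcripts. Both belong to RPS24, a 40S protein, and both calls were lost in 11 of 13 alternative settings, so the values below describe this gene and are not a result about the members. One of them, RPS24-214, leaves out a short exon that is present in the main form, RPS24-202. This exon is 22 bases long, lies at chr10:78040204-78040225 (hg38, plus strand) and begins with a stop codon, shown in capitals.
RPS24 short exon: TGAgctggagattggatcacag
In RPS24-214 the exon is skipped and the reading frame goes on into the last exon. The transcript RPS24-214 was at 445, 480 and 499 CPM in SCR1, at 339, 366 and 343 with sgRNA_96 and at 360, 378 and 291 with sgRNA_97, a log2 fold change of -0.46 ± 0.08 (edgeR adjusted p = 0.0438). The transcript RPS24-202 was at 1040, 967 and 1046 CPM in SCR1, at 1139, 1359 and 1169 with sgRNA_96 and at 1290, 1322 and 1150 with sgRNA_97 (0.28 ± 0.07, adjusted p = 0.136). In neither transcript did the groups overlap. The retained-intron transcript RPS24-211 was the second that was called, at 27.2 ± 2.90 CPM in SCR1 and 40.2 ± 2.7 CPM in KO (0.56 ± 0.09, edgeR adjusted p = 0.0325). Under the 13 alternative settings the log2 fold change lay between -0.50 and -0.41 for RPS24-214 and between 0.47 and 0.62 for RPS24-211. Without the filter on low counts, with a replicate block, and without any one of 7 libraries, 0 member transcripts passed.

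Summed over the RPS24 transcripts that either hold or skip the short exon between the same flanking exons (5 and 3 of 18), the share with the exon was 62.3, 60.6 and 61.3% in SCR1. It was 68.9, 70.8 and 68.9% with sgRNA_96 and 70.7, 71.6 and 69.7% with sgRNA_97. Every KO library, sgRNA_96 replicate 1 included, was thus above every SCR1 library, with means of 61.4 ± 0.811% (SD, n = 3) and 70.1 ± 1.1% (SD, n = 6). This share was computed after the transcript calls were seen and is a description with no test. It rests on how Salmon divided reads between transcripts that differ by 22 bases and in their first exon, and the deposited tables hold no error for that division. Summed over all members, the shares of transcript types overlapped between the groups, with retained introns at 5.80 to 5.89% of member counts in SCR1 and 5.86 to 5.98% in KO, and nonsense-mediated decay forms at 1.32 to 1.5% and 1.39 to 1.52%.

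**Figure D4:**
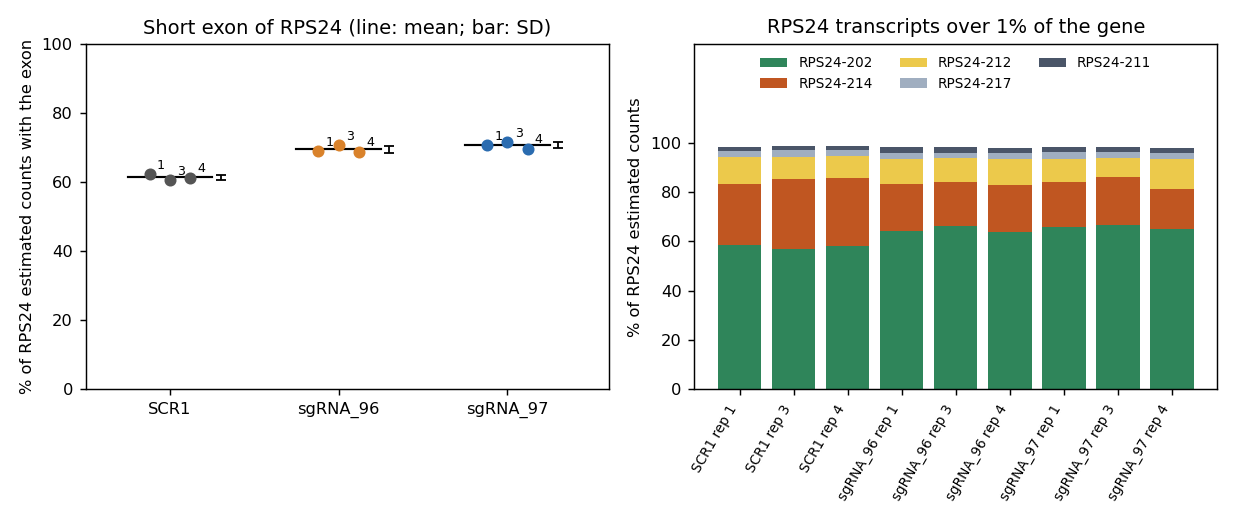
Left, percent of RPS24 estimated counts with the short exon, of those in transcripts that hold or skip it, by library and replicate number with mean and SD. Right, percent of all RPS24 estimated counts in each transcript above 1%: KO libraries show more RPS24-202 (64.0 to 66.8% against 56.9 to 58.4%) and less RPS24-214 (16.4 to 19.1% against 25.0 to 28.3%).

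Genes around the ribosomal proteins were taken from lists of their pathway. Of the ribosomal proteins outside the naming rule, FAU (fused to a ubiquitin-like part) and RACK1 (a scaffold on the small subunit) did not pass the edgeR test, with log2 fold changes of -0.03 and 0.06 (0 at an unadjusted p under 0.05, and 0 by DESeq2). Of 24 translation factors and other TOP mRNAs, 1 rose, TPT1 (0.20, adjusted p = 0.00426), and 2 fell, HNRNPA1 (-0.12) and the nucleolar protein NPM1 (-0.15). Their median was 0.06. Of 20 genes of mTORC1 and of TOP translation control, TSC1, a brake on mTORC1, rose (0.18), and EIF4EBP1 and EIF4EBP2, the repressors of the cap-binding factor, fell (-0.20 and -0.14). These calls make up 15% of the list, also below the 20.7% of all genes. TPT1 passed in all 21 alternative settings, NPM1 in 16, TSC1 in 15, HNRNPA1 and EIF4EBP2 in 13 and EIF4EBP1 in 11.

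Of 9 dedicated chaperones and binding partners of ribosomal proteins 4 passed (44.4%), where 20.7% of all tested genes did. TSR2, which delivers RPS26 to the ribosome, was at 68.4 ± 4.82 CPM in SCR1 (SD, n = 3) and 57.6 ± 4.23 CPM in KO (SD, n = 6), and fell by 0.25 on the log2 scale. GRWD1, a chaperone of RPL3, had -0.31 and RPS19BP1, a partner of RPS19, -0.34, and both fell, while ZNF277, a partner of RPS2, rose (0.30). Of 6 transcription factors of ribosomal protein promoters, GABPB1, a subunit of the ETS-type factor GABP, rose (0.18) and the other 5 did not pass. This is 16.7% of that list, below the 20.7% of all genes. Of 21 alternative settings TSR2 passed in 18, GRWD1 and RPS19BP1 in 17, GABPB1 in 15 and ZNF277 in 13. Of 4 genes listed for p53 and MDM2, 2 passed (50%), where 20.7% of all genes did, and a list this short is a description only. MDM4, a relative of MDM2, rose (0.52) and passed in all 21 alternative settings. MDM2, the binding partner of RPL5 and RPL11, rose in the test used here (0.14, edgeR adjusted p = 0.035) but passed in 10 of 21, with 0.02 (adjusted p = 0.680) with the replicate block and GC and length trend offsets. The cell cycle inhibitor CDKN1A did not pass.

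The mitochondrial ribosomal proteins, a family of like size whose proteins are also made on cytosolic ribosomes, had other values. Of 78 tested genes 0 rose (1 at an unadjusted p under 0.05, and 0 by DESeq2) and 37 fell in the edgeR test (47.4%), with a median log2 fold change of -0.19 and called values between -0.43 and -0.17. Over all tested genes 10.1% were called higher and 10.6% lower. The count of falls was 24 with the length trend taken out, 20 on either log2 TPM scale, 20 without SCR1 replicate 1 and 23 without SCR1 replicate 4, with 0 rises in all 21 alternatives. Their summed level was 5088 to 5278 TPM in SCR1 and 4356 to 4721 TPM in KO, without overlap. Examples are MRPL54 (-0.43), MRPL58 (-0.40), MRPL4 (-0.39) and MRPS12 (-0.39). Against these, 2 of 82 cytosolic members fell and their median was 0.03. The difference between the 2 families was not tested, and both were measured in the same 9 libraries.

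**Figure D5:**
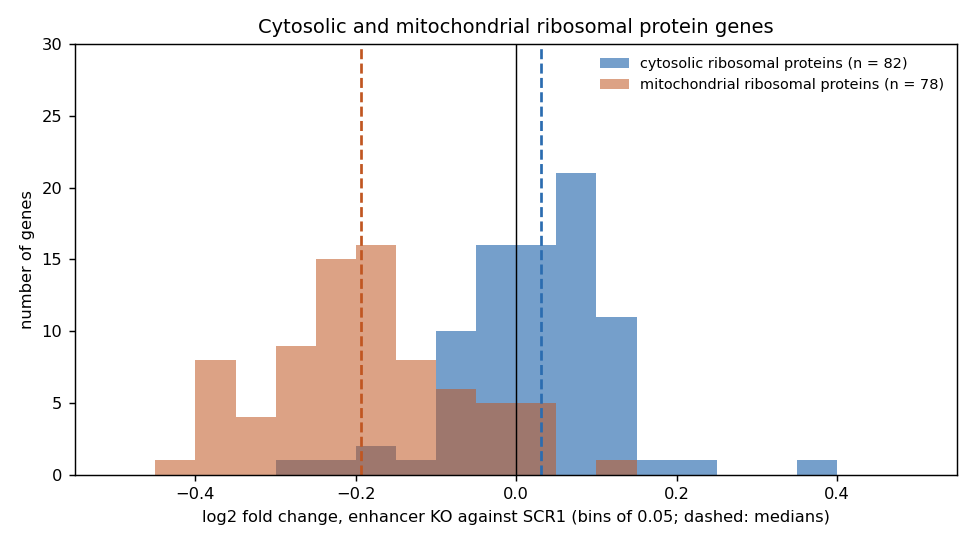
Number of genes by log2 fold change in enhancer KO against SCR1, in bins of 0.05, for 82 tested cytosolic and 78 tested mitochondrial ribosomal protein genes, with dashed lines at the medians. The cytosolic genes centre at 0.03 and the mitochondrial genes at -0.19.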

How the data were processed

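RNA was measured in 9 libraries of HAL-01 cells, prepared by the submitters from total RNA with the TruSeq mRNA kit. Per the submitters' processing notes the reads were handled with STAR and Salmon 1.10.1 on GRCh38. The authors deposited estimated counts per transcript, without normalization, and TPM values, which Salmon scales by effective transcript length to a fixed total. The annotation release was not given in the sources used here, and all 252835 transcript identifiers matched GENCODE 44. Salmon divides reads that fit several transcripts by likelihood, so near-identical copies, overlapping genes and isoforms rest on that division. The 1605 annotated pseudogenes of the members received 0.584% of the counts of members and pseudogenes together. Whether strand was used in counting was not given, and antisense genes were given counts above 10% of those of RPL36, RPL28 and RPL6.

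Rounded per-gene sums of the transcript counts were filtered with filterByExpr (minimum count 10), scaled by TMM and fitted in edgeR 4.0.16 (R 4.3.3) for its quasi-likelihood test. P-values were adjusted after Benjamini and Hochberg over all 14436 genes, at a threshold of 0.05. Library totals were 15212462 to 29777361 counts. The members had a median biological coefficient of variation of 0.0485 in the KO fit, against 0.0754 for all genes. The 3-group fit served the comparisons of single guides. Alternatives were DESeq2 1.42.0, RLE and upper-quartile factors, TMM factors without the members, no filter, a replicate block, GC and length trend offsets, limma 3.58.1 on log2(TPM + 0.5) and log2(TPM + 1), members summed with their pseudogenes, and leaving out each library. Groups came from the sample titles. The members, the gene lists and the offsets were chosen with earlier results of these data known. Genes named with values were the 5 largest rises and falls among called members, a panel of members of known roles with the paralogues, the 3 highest and 3 lowest tested levels, and called pathway genes with the same direction under both guides, of which the mitochondrial ones are given as counts with 4 examples. RPS3A, RPL36, the short exon of RPS24 and its transcripts were singled out after their values were seen. Some genes that these rules name are not reported here. Gene-level tests of KO against SCR1 were checked on simulated counts, with edgeR (also with the replicate block or the length trend offset), DESeq2 and limma. The other comparisons, settings and tests were not checked in this way.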

Additional observations from a re-analysis of the deposited data

Results flagged for a closer look

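In 48 values examined over the 6 KO libraries, 5 had a single library far from the other 5, that is, with a gap to its neighbour that exceeded Dixon's 95% critical share of the whole range. Chance alone marks about 1 in 20 such groups, here 2.4. Of the 5, 4 were in sgRNA_96 replicate 1. RPL22L1 was at 35.5 CPM in that library and at 43.8 to 46.3 CPM in the other KO libraries. RPL36AL was at 121 CPM there, against 107 to 112 CPM, and TSR2 at 65.9 CPM, against 54.0 to 57.5 CPM. RPL10 was at 1874 CPM there, against 2055 to 2132 CPM. In sgRNA_96 replicate 4, RPLP0 was at 3288 CPM, against 3503 to 3629 CPM in the others. For RPL22L1, RPL36AL and TSR2 the library lay on the side of SCR1, and for RPL10 it lay below SCR1, which was at 2023 ± 41.3 CPM (SD, n = 3). Why this library stands apart was not tested.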

How the results depend on the processing

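The number of called members moved most with the treatment of length. In KO against SCR1 it was 6, and it was 31 with a length trend offset, 44 (41 higher, 3 lower) with the replicate block together with GC and length trend offsets, 10 with DESeq2, and 2 with log2(TPM + 0.5) and also with log2(TPM + 1). Over all genes the reported test and these settings called 20.7, 18.5, 25.9, 22.5, 8.61 and 8.59%. Leaving out single libraries gave 1 to 16, where 10.2 to 24.7% of all genes were called. The members' median log2 fold change of 0.03 was 0.088 with block and offsets and 0.091 with the length trend offset. For sgRNA_96 the 0 calls became 2 with DESeq2, 2 with no filter and 1 with the GC trend offset. They became 6 with the length trend offset and 19 with block and offsets. Under these 5 settings, in this order, 13.3, 7.86, 17.1, 9.96 and 18.9% of all genes were called. Without single libraries 0 to 7 members were called for sgRNA_96, where 5.25 to 14.1% of all genes were. For sgRNA_97 the 6 calls became 12 with DESeq2, 10 with upper-quartile factors and 30 with the length trend offset. They became 50 with block and offsets and 1 with either TPM scale. Under these 6 settings, in this order, 16.5, 14.8, 13.7, 21.7, 4.93 and 4.89% of all genes were called. Without single libraries 0 to 10 members were called for sgRNA_97, where 6.70 to 17.4% of all genes were. Between the guides 0 members were called under all 21 alternatives, where 0 to 0.389% of all genes were. Called pathway genes numbered 50, 22 with either TPM scale and 22 to 58 without single libraries, and called named genes 55, 23 and 21 to 58. The difference in the members' share between KO and SCR1 was 0.303 percentage points of counts and 1.02 points of TPM. The 2 called member transcripts became 0 with no filter, 0 with the replicate block and 0 to 1 without single libraries. The cause of these moves was not tested.

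The replicate numbers showed no pairing of the libraries in correlations over all tested genes. Deviations of same-numbered libraries from their group means correlated between -0.066 and 0.055, those of libraries with other numbers between -0.066 and 0.089. Whether a part of the genes shares an effect of the replicate number was not tested. With the replicate block 6 members were called in KO (4 higher, 2 lower), 0 for sgRNA_96, 6 for sgRNA_97 and 0 between the guides. Of all genes 20.3, 10.9, 14.4 and 0.00693% were called in these comparisons.

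Of 1761 single values under an alternative, 1439 kept direction and side of the threshold, 252 lost the call and 35 gained it. No called value changed sign. The 35 sign changes concern 9 uncalled genes near 0. With block and offsets RPLP0 had 0.087 (called there, adjusted p = 0.0201), RPSA 0.056, RPLP2 0.014, RPLP1 0.0058 and RPSA2 -0.0021. With the length trend offset RPLP0 had 0.070, RPSA 0.066 and RPLP1 0.018. With the GC trend offset RPLP0 had 0.029, RPSA2 -0.014 and RPS6 -0.00017. With upper-quartile factors RPLP0 had 0.012 and RPSA 0.0076, and with either TPM scale 0.013 and 0.0037. RPLP0 had 1.8e-05 with RLE factors, RPS14 -0.0091 and RPL37A -0.0039 with no filter, and RPS14 -0.00031 with the replicate block. Without single libraries RPLP0 ranged from -0.015 to 0.023, RPSA from -0.028 to 0.015, RPS14 from -0.035 to 0.022, RPL37A from -0.037 to 0.042, RPSA2 from -0.00063 to 0.036 and RPL3 from -0.015 to 0.058. RPL10L and RPL3L entered the test once the filter on low counts was dropped.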
